A study of Mus musculus with 8 samples.

Results

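The genes described here are the 3 members of the p53 transcription factor family, Trp53, Trp63 and Trp73, and 6 genes known as p53 targets, Cdkn1a, Mdm2, Ccng1, Bax, Bbc3 and Gdf15. They were taken by name and make up 9 of the 54838 genes counted. RNA was sequenced from trypsin-isolated epidermis of mouse skin in 4 groups of 2 libraries, which were control and Ovol1/2 iDKO mice, each at 25 and at 52 DPI. Both iDKO and DPI are abbreviations of the labels. The zinc finger proteins OVOL1 and OVOL2 regulate transcription in epithelia. The labels name no alleles, no driver of the deletion, no agent and no age. Each iDKO library was set beside the control library of the same time and replicate number, which gave 4 pairs. The markers of keratinocytes (Krt5, Krt14, Krt1 and Krt10) were present in all 8 libraries, with a summed level of 21037 to 39000 CPM (counts scaled to the effective library total).

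p53 is a transcription factor that is held at a low level by the ubiquitin ligase MDM2 and accumulates after DNA damage and other stress. It then switches on genes that stop the cell cycle, such as Cdkn1a, and genes that promote apoptosis, such as Bax and Bbc3, and it also switches on Mdm2, which closes a feedback loop. Its relatives p63 and p73 bind similar DNA sites. In the epidermis p63, mostly as a form without the first transactivation domain, is required for the formation and upkeep of the basal layer.

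The DNA site shared by the family consists of a pair of 10-base units, each made of 3 purines, a C, 2 bases that are A or T, a G and 3 pyrimidines. RefSeq promoter windows of build GRCm38.p6, the 250 bases before a gene's start, were searched on the gene's strand for 2 such units with at most 1 base between them and at most 1 mismatch in all, with the C and the G kept. The unit is its own reverse complement, so both strands are covered. Of the 9 genes 8 had a window, and Trp63 had none. Only 29 of the 32851 windows (0.0883%) held such a site, and 2 of the 13 windows of the 9 genes were among them, 1 of Cdkn1a and 1 of Ccng1. They are shown with 20 flanking bases, since these are the sequences through which the family is known to act on its targets, with the pair of units in capitals.
Cdkn1a: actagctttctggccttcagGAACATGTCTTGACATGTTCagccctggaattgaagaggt
Ccng1: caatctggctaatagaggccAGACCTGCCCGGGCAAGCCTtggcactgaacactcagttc
The Cdkn1a stretch is at chr17:29090908-29090967 on the plus strand, upstream of the annotated gene, and the Ccng1 stretch is at chr11:40755442-40755501 on the minus strand, also upstream of its gene. In both sites the units adjoin and 1 base differs from the pattern. A single exact unit was found in 7.13% of all windows and in those of Trp53, Mdm2 and Bax as well. Such a match describes the letters only. The counts do not show what was bound there.

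Library totals were 9824307 to 50711381 counts, and 8 of the 9 genes passed the filter on low counts among 17839 tested. Replicates of a group were less alike than the libraries of a pair, with correlations of log2 CPM of 0.782 to 0.928 between the replicates of a group and of 0.938 to 0.983 within a pair. Markers of other cells set some libraries apart. The control replicate 1 library at 25 DPI had the highest sums for melanocytes (334.1 CPM, against 28.3 to 41.8 in the other 7) and erythroid cells (90.1, against 0.57 to 15.6). Its sum for Langerhans cells was also highest (1300.4, against 168.3 to 844.5), but Epcam made up 837.5 CPM of it. Cd74 was at 426.2 CPM there, below 507.6 in iDKO replicate 1 at 52 DPI. Cd207 was at 36.7 CPM, below 68.0 in iDKO replicate 2 at 52 DPI. The iDKO replicate 2 library at 52 DPI had the lowest sum of keratinocyte markers, 21037 CPM against 36778 in its control, and 116.0 against 16.8 CPM of fibroblast markers and 15.6 against 0.71 CPM of erythroid markers. T cell markers were highest in control replicate 1 at 25 DPI and iDKO replicate 2 at 52 DPI, at 562.3 and 531.0 CPM, against 99.5 to 291.8 in the other 6. Fibroblast markers were highest in iDKO replicate 2 at 25 DPI, at 158.3 CPM against 51.6 in its control. Tested genes were split by exonic length into 4 classes of equal size. In the control libraries of replicate 1 the median log2 ratio of 52 over 25 DPI was -1.25 in the shortest class and 0.70 in the longest, against 0.12 and -0.09 in replicate 2. Xist had levels from 0.12 to 0.34 CPM in the 25 DPI libraries and from 131.1 to 1139 CPM in the others, and Y-linked genes ran the other way, so sex and time cannot be told apart. The counts of Ovol1 and Ovol2 do not check the labels, since both were higher in the iDKO library of all 4 pairs, while Zeb1, a repressor of epithelial genes, was at 14.4 to 35.3 CPM in iDKO and 2.04 to 3.33 CPM in control.

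Of the 9 genes only Trp73 was higher in iDKO in all 4 pairs, and the levels of Cdkn1a, Mdm2, Ccng1, Bax and Bbc3 gave no call at either time. Trp73, which encodes p73, a family member with roles in multiciliated and neural cells and in apoptosis, lies at chr4:154056253-154140208 on the minus strand (GRCm38, the build of all gene positions given here). It had levels of 11.8 and 50.5 CPM (control, replicates 1 and 2) against 59.8 and 114.7 CPM (iDKO) at 25 DPI. For 52 DPI the levels were 74.1 and 38.7 CPM (control) against 148.9 and 40.7 CPM (iDKO). The iDKO libraries were thus above both controls at 25 DPI, as in 5.39% of all tested genes, while at 52 DPI the iDKO replicate 2 library lay below the control replicate 1 library. The iDKO to control ratios were 5.08 and 2.27 at 25 DPI and 2.01 and 1.05 at 52 DPI. Genes higher in iDKO in all 4 pairs made up 6.73% of those tested, beside 1 of the 8 described here, and the exact permutation test of the mean ratio over the pairs gave p = 0.125 (two-sided), the smallest that 4 pairs allow.

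**Figure D1:**
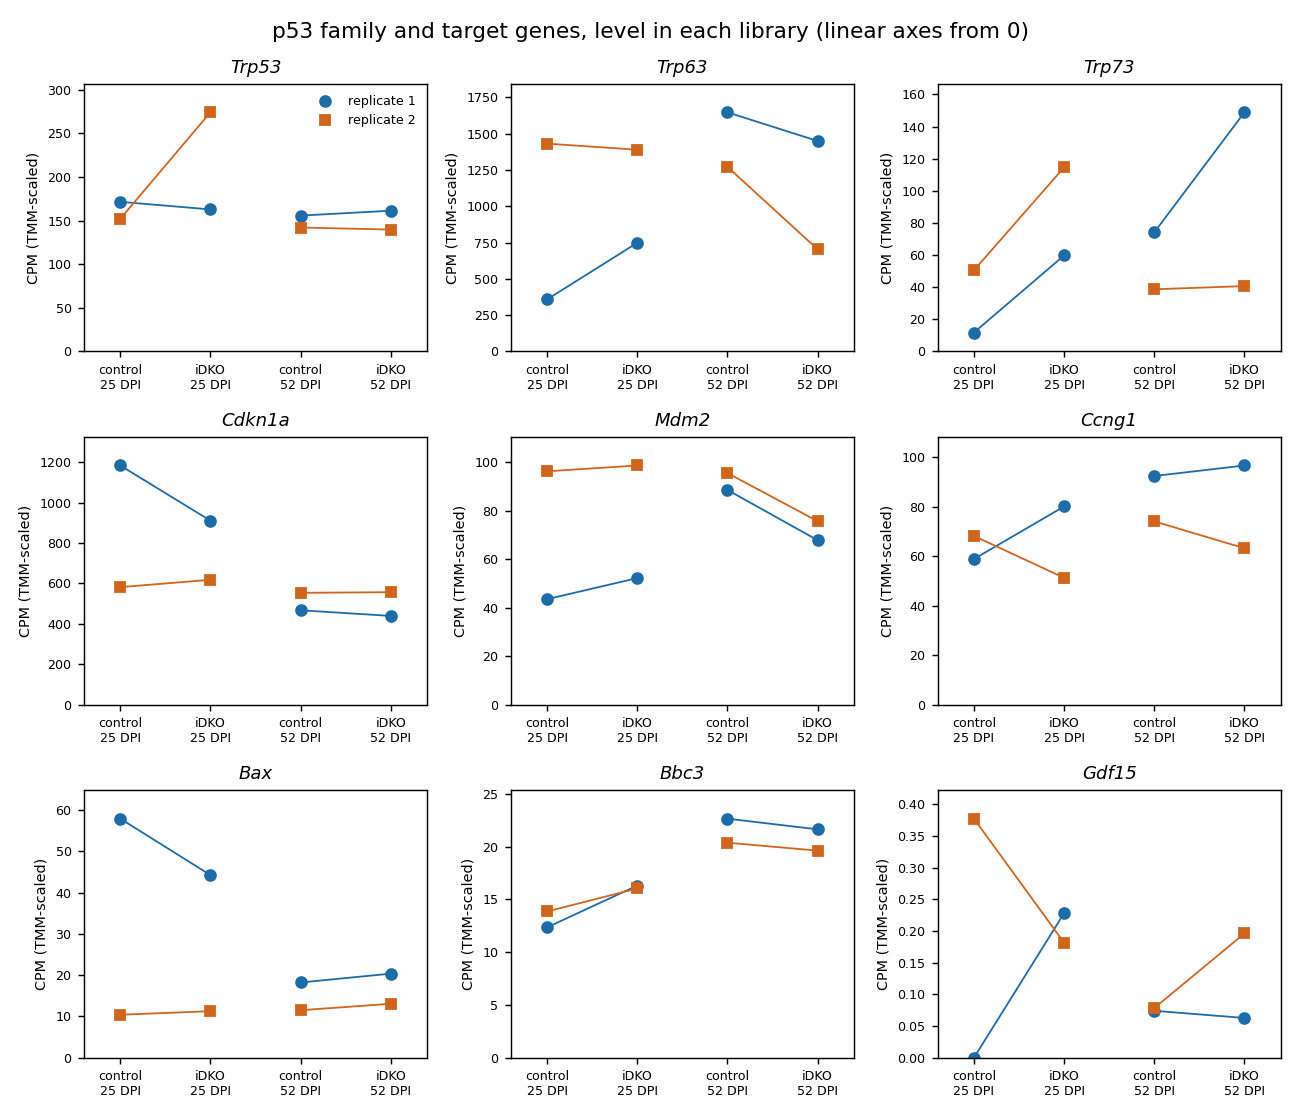
Level of each gene in CPM (linear axis from 0) in the 8 libraries, with circles for replicate 1, squares for replicate 2 and a line joining the control and iDKO libraries of a pair. Trp73 is higher in iDKO in each pair, from 11.8 to 59.8 CPM in the widest, and Cdkn1a and Bax are highest in the replicate 1 libraries at 25 DPI.

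By edgeR's quasi-likelihood test the log2 fold change of Trp73 at 25 DPI was 1.48 (SE 0.89, adjusted p = 1.00, 95% interval -0.60 to 3.57), and at 52 DPI it was 0.75 (95% interval -1.30 to 2.80, adjusted p = 1.00). edgeR called 0 of 17839 genes (0%) in each of the genotype comparisons. With the replicate block within time, which compares the libraries within pairs, DESeq2 called Trp73 at 25 DPI (log2 fold change 1.74, SE 0.40, adjusted p = 0.00443). Among all tested genes that test called 0.577% at 25 DPI, 0.51% as higher and 0.0673% as lower, and Trp73 was the 1 call among the 8 genes. edgeR with the same block gave 1.74 and did not call it (adjusted p = 0.592). The DESeq2 call was lost without the replicate 1 pair of this time (log2 fold change 1.18, adjusted p = 0.281). Without the replicate 2 pair the log2 fold change was 2.34. Either of these fits compares 1 control with 1 iDKO library at 25 DPI, so neither measures the spread at that time. The call remained without either 52 DPI pair, where the groups at 25 DPI kept both replicates. Across both times DESeq2 with the block did not call Trp73 (1.13, adjusted p = 0.175), except without the replicate 2 pair at 52 DPI (1.48, adjusted p = 0.00329). These fits without a pair were added after the data were seen, and each leaves 1 library per group at the time of that pair. Without the control replicate 1 library at 25 DPI, one of those set apart by markers of other cells, the log2 fold change by edgeR at 25 DPI was 0.76. Without the iDKO replicate 1 library at 52 DPI the log2 fold change by edgeR at 52 DPI was -0.48. It was 1.41 without the iDKO replicate 2 library of that time, which was also set apart by markers. The difference between the genotype effects at the 2 times was -0.74 (95% interval -3.62 to 2.15, adjusted p = 1.00 by edgeR). For that difference DESeq2 with the block called 0 of the 8 genes, beside 0.219% of all genes (0.0841% higher and 0.135% lower).

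The replicate 1 pair at 25 DPI, in which Trp73 differed most, also differed by gene length. The length class that holds Trp73 by its exonic length of 5534 bases had a median log2 ratio of 0.14 in that pair, beside 2.34 for Trp73. In the replicate 2 pair of the same time that median was -0.02, beside 1.18. Summed keratinocyte markers were at 22380 CPM in the control library of the replicate 1 pair and at 39000 CPM in its iDKO library. Most of that rise lay in Krt5 (5244 to 10644 CPM) and Krt14 (11225 to 21605 CPM). Krt1 went from 1604 to 1989 CPM and Krt10 from 4308 to 4762 CPM. The part of cell composition in the Trp73 ratio was not tested, and in bulk samples fewer cells of a type and less RNA per cell cannot be told apart. The long noncoding gene Trp73os overlaps Trp73 on the other strand over 280 exonic bases. In the replicate 2 libraries, which mark strand, 99.6% to 100% of the stranded Trp73 counts lay on the Trp73 strand and Trp73os had 1 count in each. The counts cover the whole gene and do not separate the forms with and without the first transactivation domain.

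Trp63 (chr16:25683763-25892102, plus strand), the family member required for the epidermis, had the highest level of the 3. Per kilobase of exon its mean over the libraries was 134.1 CPM, against 42.0 for Trp53 and 12.2 for Trp73. In CPM not scaled by length, Trp63 had 359 and 1431 CPM (control) against 748 and 1389 CPM (iDKO) at 25 DPI. Later, at 52 DPI, the levels were 1647 and 1271 CPM (control) against 1450 and 703 CPM (iDKO). The groups overlapped at both times, and at 52 DPI the iDKO library was lower in both pairs. The ratios were 2.09 and 0.971 at 25 DPI and 0.880 and 0.553 at 52 DPI, and the log2 fold changes of 0.26 (95% interval -1.63 to 2.14) and -0.44 (95% interval -2.33 to 1.45) were not called by edgeR (adjusted p = 1.00 for each). The direction at 25 DPI turned without control replicate 1 (-0.45) or iDKO replicate 2 (-0.24). In the class of longest genes, to which Trp63 belongs, the median log2 ratio of the replicate 1 pair at 25 DPI was 0.36, beside 1.06 for Trp63. The lowest Trp63 level at 52 DPI was in the iDKO replicate 2 library, the one with the lowest keratinocyte markers, and without it the log2 fold change at that time was -0.0021.

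A list of 20 epidermal p63 targets followed the same order of pairs. Its median log2 ratio of iDKO over control was 0.96 and 0.09 in the 25 DPI pairs and -0.17 and -0.54 in the 52 DPI pairs, against 0.02, -0.01, 0.00 and -0.04 over all tested genes. By the fold changes of edgeR 18 of the 20 genes were higher at 25 DPI, beside 8479 of all 17839, and 15 lower at 52 DPI, beside 9191. By pair 18 and 12 of the 20 were higher at 25 DPI and 5 and 7 at 52 DPI (replicates 1 and 2). The keratinocyte markers, of which Krt5 and Krt14 are also on this list, ran from 22380 to 39000 CPM (control to iDKO) in the replicate 1 pair at 25 DPI and from 36778 to 21037 CPM in the replicate 2 pair at 52 DPI, and T cell markers ran from 107.4 to 531.0 CPM in the latter. The part of these cells in the list's medians was not tested. Of the list 0 genes were called in either comparison by edgeR and by DESeq2 with the block. Grhl3 and Zfp750, regulators of late keratinocyte differentiation, and Dlx3, a homeobox gene of differentiating keratinocytes, were higher in iDKO in all 4 pairs. They were the only such genes of the 20, beside 6.73% of all tested genes. Dlx3 was at 54.9 CPM in iDKO replicate 2 at 52 DPI, against 3.37 in its control and 2.22 to 7.47 CPM elsewhere. That library had the lowest keratinocyte markers, and the part of other cells in its Dlx3 level was not tested. Grhl3 stood at 69.5 and 62.9 CPM (control) against 74.3 and 101.7 CPM (iDKO) at 25 DPI. The 52 DPI levels were 56.7 and 48.3 CPM (control) against 81.9 and 84.9 CPM (iDKO), and its log2 fold change across both times was 0.54 (SE 0.26, edgeR adjusted p = 1.00). Jag2, a Notch ligand on the same list, had the second highest likeness to Trp63 of all genes, given below.

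Trp53 (chr11:69580359-69591873, plus strand) lay apart in 1 library. It stood at 171.6 and 152.1 CPM (control) against 162.9 and 274.2 CPM (iDKO) at 25 DPI. For 52 DPI the levels were 155.8 and 142.1 CPM (control) against 161.4 and 139.8 CPM (iDKO). Thus 7 of the libraries lay between 139.8 and 171.6 CPM and iDKO replicate 2 at 25 DPI lay above them. The log2 fold changes were 0.43 (95% interval -0.71 to 1.58) at 25 DPI and 0.02 (95% interval -1.13 to 1.16) at 52 DPI (edgeR adjusted p = 1.00 for each), and without that library the value at 25 DPI was 0.01. The summed fibroblast markers Col1a1, Col1a2, Col3a1, Pdgfra and Dcn were highest in the same library, at 158.3 CPM against 7.91 to 116.0 CPM in the others, and their part in the Trp53 level was not tested. The library with 116.0 CPM, iDKO replicate 2 at 52 DPI, had the lowest Trp53 level. Since p53 activity is set largely by the stability of the protein, the transcript level is no measure of it.

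Cdkn1a (chr17:29090976-29100727, plus strand), which encodes the cyclin-dependent kinase inhibitor p21, was the most abundant of the 9 genes per length, at a mean of 186.8 CPM per kilobase. At 25 DPI it stood at 1184 and 582 CPM (control) against 911 and 618 CPM (iDKO). Later, at 52 DPI, the levels were 467 and 553 CPM (control) against 439 and 557 CPM (iDKO). The replicate 1 libraries were the highest at 25 DPI and the lowest at 52 DPI in both genotypes. The ratios of iDKO to control were 0.769, 1.06, 0.940 and 1.01 over the 4 pairs. Its log2 fold change was -0.21 (95% interval -1.59 to 1.17) at 25 DPI and -0.04 (95% interval -1.42 to 1.35) at 52 DPI (edgeR adjusted p = 1.00 for each). Part of Cdkn1a, 273 exonic bases, is shared with AC167363.2, a gene model on the other strand that awaits experimental support. In the replicate 2 libraries counting by strand raised Cdkn1a, for example from 29298 to 36661 counts in control at 25 DPI, and the log2 ratios of the replicate 2 pairs were then 0.09 and 0.00.

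Mdm2 (chr10:117688875-117710758, minus strand), the ubiquitin ligase of the feedback loop, was higher in iDKO in both pairs at 25 DPI and lower in both at 52 DPI, and so was Bbc3 (chr7:16308393-16318205, plus strand), which encodes the BH3-only apoptosis protein PUMA. Mdm2 stood at 43.5 and 96.3 CPM (control) against 52.2 and 98.7 CPM (iDKO) at 25 DPI. The 52 DPI levels were 88.6 and 95.6 CPM (control) against 67.9 and 75.7 CPM (iDKO), where the iDKO libraries lay below both controls, as in 10.2% of all tested genes. Its ratios were 1.20, 1.02, 0.766 and 0.792. Bbc3 stood at 12.4 and 13.9 CPM (control) against 16.3 and 16.0 CPM (iDKO) at 25 DPI, where the iDKO libraries lay above both controls. For 52 DPI the levels were 22.6 and 20.4 CPM (control) against 21.6 and 19.6 CPM (iDKO). With Trp73, Bbc3 made 2 of the 8 genes that lay above both controls at 25 DPI (5.39% of all tested genes, with 5.15% below), and Mdm2 was the 1 below at 52 DPI (10.2%, with 11.9% above). Higher in both pairs at 25 DPI and lower in both at 52 DPI were these 2 of the 8 genes, Mdm2 and Bbc3, beside 8.4% of all tested genes, and 8.06% had the opposite order. In no gene of the 8 were all 4 iDKO libraries above, or all below, the 4 controls (0.471% and 0.235% of all genes). The difference between the genotype effects was -0.47 (95% interval -2.32 to 1.38) for Mdm2 and -0.36 (95% interval -1.74 to 1.01) for Bbc3 and was not called (edgeR adjusted p = 1.00 for both).

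Ccng1 (chr11:40748552-40755311, minus strand), which encodes cyclin G1, and Bax (chr7:45461697-45466898, minus strand), which encodes a pore-forming apoptosis protein, differed between the replicates. Ccng1 stood at 58.8 and 68.2 CPM (control) against 80.1 and 51.2 CPM (iDKO) at 25 DPI. Later, at 52 DPI, the levels were 92.4 and 74.0 CPM (control) against 96.6 and 63.2 CPM (iDKO). It was thus higher in iDKO in the replicate 1 pair and lower in the replicate 2 pair at both times. Bax stood at 57.9 and 10.4 CPM (control) against 44.3 and 11.3 CPM (iDKO) at 25 DPI. The 52 DPI levels were 18.2 and 11.5 CPM (control) against 20.4 and 13.1 CPM (iDKO). Its 4 replicate 2 libraries lay between 10.4 and 13.1 CPM, below the 4 of replicate 1. Bax is in the class of shortest genes, at 1576 exonic bases, which was higher at 25 than at 52 DPI in replicate 1 as given above. The log2 fold changes at 25 and 52 DPI were 0.05 and -0.06 for Ccng1 and -0.30 and 0.17 for Bax (edgeR adjusted p = 1.00 for each), with 95% intervals of -1.08 to 1.17, -1.18 to 1.06, -2.41 to 1.81 and -1.94 to 2.28.

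Gdf15 (chr8:70629393-70632456, minus strand), which encodes a stress-induced cytokine, was barely detected. Its counts were 0 and 19 in control and 2 and 5 in iDKO at 25 DPI, and 2 and 1 in control and 2 and 3 in iDKO at 52 DPI. It did not pass the filter and was not tested. The 0 counts in control replicate 1 at 25 DPI allow a level of up to 0.196 CPM (3 counts, counting error only), and the highest level, in control replicate 2 of that time, was 0.377 CPM.

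**Figure D2:**
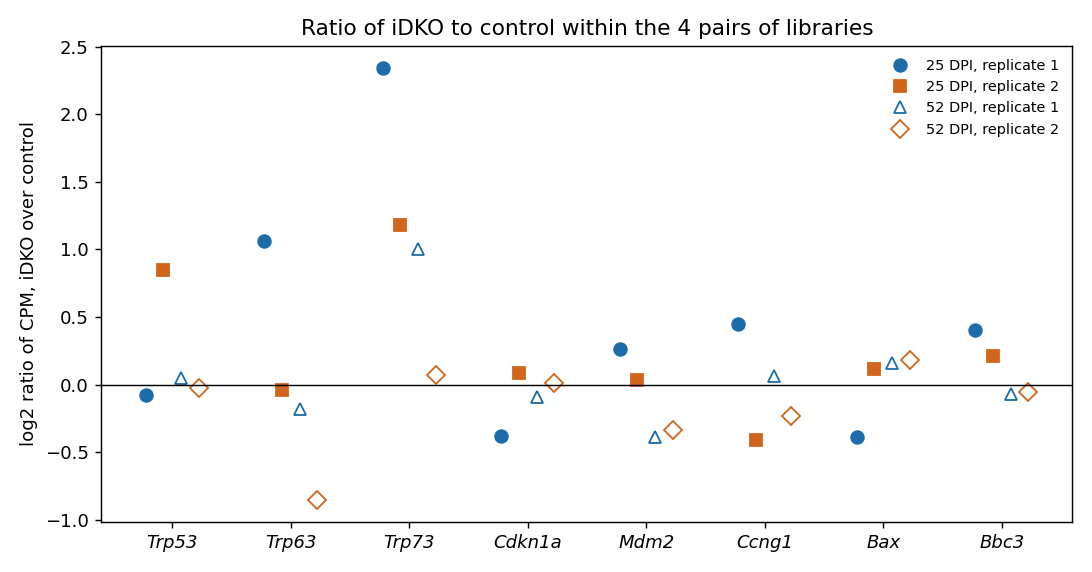
Log2 ratio of CPM, iDKO over control, for the 8 tested genes in each of the 4 pairs, with filled symbols for 25 DPI and open symbols for 52 DPI. Trp73 lies above 0 in all 4 pairs (0.07 to 2.34), and the points of Cdkn1a lie between -0.38 and 0.09.

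Over the 4 pairs the mean log2 ratio of the targets was -0.09 ± 0.20 for Cdkn1a, -0.11 ± 0.31 for Mdm2, -0.03 ± 0.37 for Ccng1, 0.02 ± 0.27 for Bax and 0.12 ± 0.23 for Bbc3 (SD, n = 4 pairs). For these 5 genes the mean was smaller than the SD between pairs, and exact permutation tests over the pairs gave p from 0.5 to 1.0 (two-sided). Across both times edgeR gave log2 fold changes of -0.12 (95% interval -0.96 to 0.72) for Cdkn1a and -0.12 (95% interval -0.95 to 0.70) for Mdm2. The intervals were -0.68 to 0.67 for Ccng1, -1.44 to 1.31 for Bax and -0.47 to 0.72 for Bbc3. Without the control replicate 1 library, the log2 fold changes at 25 DPI were 0.35 for Cdkn1a, -0.38 for Mdm2, -0.10 for Ccng1, 1.35 for Bax and 0.19 for Bbc3, all but the last with the opposite sign and none called by edgeR. Across both times the interval of Bax without a block includes changes of more than 2-fold, and those of the other 4 genes do not. With the replicate block within time the interval of Bax was -0.37 to 0.40. Of the 8 tested genes 0 were called across both times (0% of all tested genes by edgeR), and by DESeq2 with the block 0 of 8, beside 0.409% of all genes (0.336% higher and 0.0729% lower).

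Beyond these genes, 48 further p53 targets in 4 lists were counted by direction. At 25 DPI 25 were higher and 23 lower (median log2 fold change 0.03, against -0.03 over all tested genes), and at 52 DPI 16 were higher and 32 lower (-0.12, against -0.01). edgeR called 0 of them. DESeq2 with the block called 2 as higher at 25 DPI, beside 0.51% of all genes, and 1 as lower at 52 DPI, beside 0.0673% (0.129% were called as higher and 0.196% in all). In all 4 pairs 2 of the 48 were higher, Ptprv and Sulf2, and 6 were lower, Cgref1, Phlda3, Perp, Rrm2b, Gls2 and Rchy1, beside 6.73% and 6.7% of all genes.

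Among the 12 targets of cell cycle arrest and growth control, Sesn2, a stress-induced regulator of metabolism, stood at 26.3 and 54.9 CPM (control) against 55.2 and 224.5 CPM (iDKO) at 25 DPI. It was called by DESeq2 with the block (log2 fold change 1.55, SE 0.33, adjusted p = 0.00128), and this call was lost without the replicate 2 pair of that time (1.07, adjusted p = 0.13). For 52 DPI the levels were 100.1 and 120.8 CPM (control) against 87.2 and 112.2 CPM (iDKO). Sesn2 is also a target of the integrated stress response, and of the 9 tested genes on that list it was the only one called. Ptprv, a receptor phosphatase gene known as a p53 target, was at 8.62 CPM in control and 54.2 CPM in iDKO in the replicate 2 pair at 52 DPI, and it was not called (DESeq2 with the block, adjusted p = 0.094). Phlda3, an inhibitor of AKT signalling, had a log2 fold change of -0.23 across both times, uncalled by edgeR.

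Among the 12 apoptosis targets Pmaip1, which encodes the BH3-only protein NOXA, was the gene called as lower at 52 DPI. It stood at 92.3 and 78.7 CPM (control) against 42.8 and 37.3 CPM (iDKO), and the log2 fold change by DESeq2 with the block was -1.11 (SE 0.27, adjusted p = 0.0275). This call was lost without the replicate 2 pair at 25 DPI (-1.11, adjusted p = 0.0528) and without the replicate 1 or 2 pair at 52 DPI (-1.07, adjusted p = 0.84, and -1.13, adjusted p = 1.00). At 25 DPI it was at 19.4 and 52.0 CPM (control) against 21.2 and 65.6 CPM (iDKO). The iDKO libraries lay below both controls at 52 DPI and slightly above their pair partner at 25 DPI. Eda2r, a death domain receptor of the TNF receptor family, and Tnfrsf10b, a receptor of TRAIL, had log2 fold changes of -0.26 and 0.10 across both times, uncalled. For Pmaip1 edgeR without a block gave -1.09 at 52 DPI (adjusted p = 1.00). Perp, a desmosome gene that is a target of both p53 and p63, was lower in iDKO in all 4 pairs with a log2 fold change across both times of only -0.15.

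Among the 12 targets of feedback and signalling Epha2, an ephrin receptor, was at 27.6 and 352.5 CPM (control) against 57.3 and 895.8 CPM (iDKO) at 25 DPI. DESeq2 with the block called it (log2 fold change 1.19, SE 0.27, adjusted p = 0.00519). The call was lost without the replicate 2 pair at 25 DPI (1.05, adjusted p = 0.118), and without the replicate 1 or 2 pair at 52 DPI the fold change was 1.19 in each fit and the adjusted p 0.186 and 0.159. By ratio the replicates of a group lay further apart than the libraries of a pair. Epha2 and Sesn2 were each highest in iDKO replicate 2 at 25 DPI, in which fibroblast markers were also highest (158.3 CPM). The part of these cells in the 2 levels was not tested. Kitl, the KIT ligand that supports melanocytes, was at 55.4 CPM in iDKO replicate 2 at 52 DPI and at 10.4 to 30.0 CPM elsewhere. The 12 targets of DNA repair and metabolism held 0 calls, and Sulf2, a heparan sulfatase gene, was at 25.6 CPM in control and 102.7 CPM in iDKO in the replicate 2 pair at 52 DPI. Ptprv, Kitl and Sulf2 were each highest in the iDKO replicate 2 library at 52 DPI, in which T cell markers (531.0 against 107.4 CPM in its control), fibroblast markers (116.0 against 16.8) and erythroid markers (15.6 against 0.71) were also higher, and the part of these cells in their levels was not tested.

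Of the regulators of p53, 19 of 20 were tested, with 13 higher at 25 DPI and 13 lower at 52 DPI by edgeR (medians 0.13 and -0.11). Of all 17839 tested genes 8479 were higher at 25 DPI and 9191 lower at 52 DPI. By pair 14 and 9 of the 19 regulators were higher at 25 DPI and 5 and 6 at 52 DPI (replicates 1 and 2). Their median log2 ratios in these pairs were 0.52, -0.01, -0.06 and -0.14. Of the BCL2 family 11 of 12 were tested, with 6 lower at 25 DPI and 7 higher at 52 DPI by edgeR (medians -0.23 and 0.12). Of all tested genes 9360 were lower at 25 DPI and 8633 higher at 52 DPI. By pair 5 and 7 of the 11 were higher at 25 DPI and 5 and 6 at 52 DPI (replicates 1 and 2). The median log2 ratios of the family in these pairs were -0.06, 0.15, -0.15 and 0.06. Both lists held 0 calls by edgeR and by DESeq2 with the block. Hipk2, a kinase that phosphorylates p53, stood at 19.5 and 76.0 CPM (control) against 48.0 and 104.6 CPM (iDKO) at 25 DPI, and Chek2, a kinase of the DNA damage checkpoint, was lower in iDKO in all 4 pairs (log2 fold change -0.36 across both times, uncalled by edgeR). Rpl11, a ribosomal protein gene whose product can bind MDM2, was also lower in each pair (-0.31, uncalled). Bak1, a pore-forming relative of Bax, was higher in each pair (0.48, uncalled), with levels of 0.65 to 2.85 CPM in replicate 1 and 11.99 to 19.3 CPM in replicate 2, and Bcl2l1, which encodes the survival protein BCL-XL, was lower in each pair (-0.17, uncalled).

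Of the 13 CDK inhibitors and G1 cyclins 7 were higher at 25 DPI and 8 at 52 DPI by edgeR, beside 8479 and 8633 of all 17839 genes, with 0 calls. By pair 5 and 9 of the 13 were higher at 25 DPI and 9 and 8 at 52 DPI (replicates 1 and 2). Cdkn2c, which encodes a CDK inhibitor, was higher in all 4 pairs (0.37, uncalled), the only such gene of that list, and Ccnd1, the cyclin D1 gene, had a log2 fold change of -0.26 (uncalled). The 16 cell cycle genes that p21 is known to repress through the DREAM complex had median log2 ratios of 0.01, 0.04, -0.11 and 0.03 in the 4 pairs and 0 calls, and Cdk1, the mitotic kinase gene, was the one lower in each pair (-0.18, uncalled). Mki67, a proliferation marker of that list, had a log2 fold change of 0.33 across both times (edgeR adjusted p = 1.00). The immediate-early genes, which trypsin isolation can induce, had a median log2 ratio of -0.87 in the replicate 2 pair at 52 DPI and of -0.14 to 0.25 in the other pairs, and 0 of 12 were called. The pair at -0.87 is the one in which keratinocyte markers went from 36778 to 21037 CPM, T cell markers from 107.4 to 531.0 CPM and fibroblast markers from 16.8 to 116.0 CPM (control to iDKO), and their part in it was not tested. Fos, an immediate-early transcription factor gene, ranged from 2569 to 11383 CPM in the 25 DPI libraries and from 2304 to 4890 CPM in the others. Of the 9 integrated stress response genes 7 were higher at 25 DPI and 6 lower at 52 DPI by edgeR, beside 8479 and 9191 of all 17839 genes. By pair 6 and 5 of the 9 were higher at 25 DPI and 4 and 3 at 52 DPI (replicates 1 and 2). Trib3, a pseudokinase gene of that list, was at 2.74 to 7.69 CPM in all libraries.

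**Figure D3:**
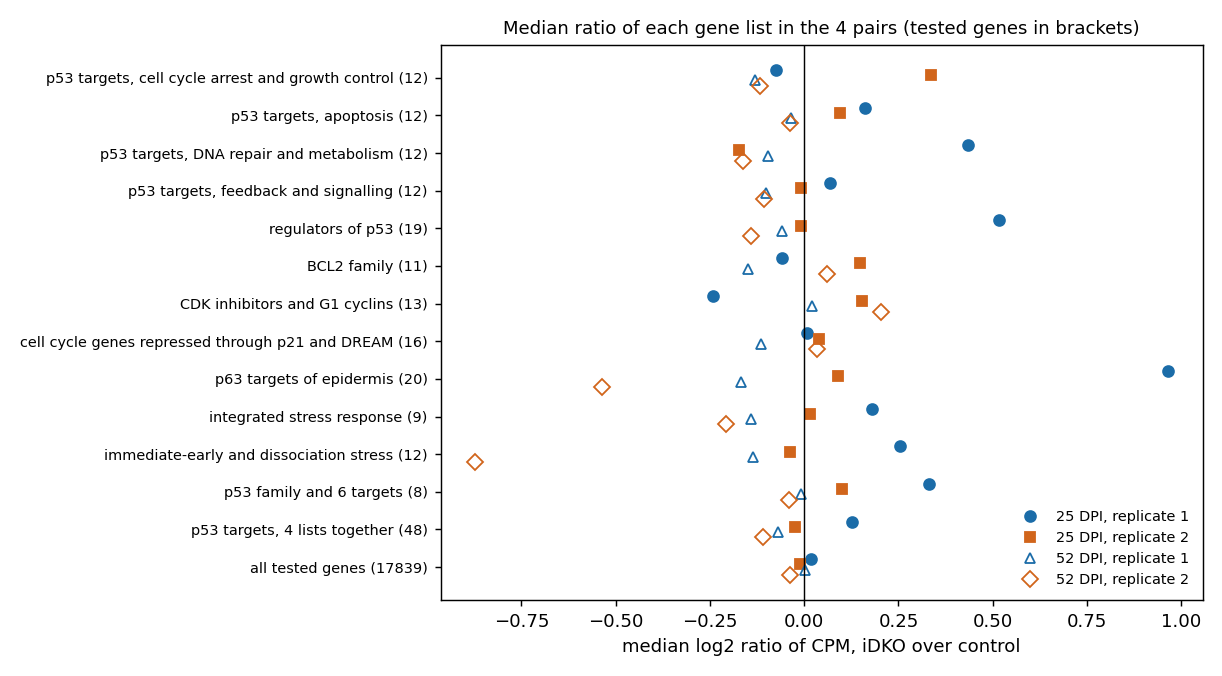
Median log2 ratio of CPM, iDKO over control, of each gene list in the 4 pairs, with the number of tested genes in brackets. The 48 p53 targets together lie between -0.11 and 0.13, and the p63 targets range from 0.96 in the replicate 1 pair at 25 DPI to -0.54 in the replicate 2 pair at 52 DPI.

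Between the times Cdkn1a was lower and Bbc3 higher at 52 DPI, with no overlap between the 4 libraries of 25 DPI and the 4 of 52 DPI. Cdkn1a ranged from 582 to 1184 CPM at the earlier time and from 439 to 557 CPM at the later, and Bbc3 from 12.4 to 16.3 and from 19.6 to 22.6 CPM. Of all tested genes 1.64% were separated in the first direction and 2.65% in the second, beside 1 of 8 genes for each. The Cdkn1a ratios of 52 over 25 DPI were 0.395 and 0.482 in replicate 1 and 0.951 and 0.901 in replicate 2 (control and iDKO). The length class of Cdkn1a and Bbc3 had median log2 ratios of -0.43 and -0.26 in replicate 1, beside -1.34 and -1.05 for Cdkn1a. In replicate 2 the medians were 0.02 and 0.06, beside -0.07 and -0.15. The part of gene length was not tested, and sex cannot be told apart from time. In all 4 pairs of the times 2 of the 8 genes were higher at 52 DPI, Bbc3 and Ccng1 (8.53% of all tested genes), and 2 were lower, Cdkn1a and Trp53 (9.61%). The Bbc3 ratios were 1.83 and 1.33 in replicate 1 and 1.47 and 1.22 in replicate 2. A test of the times over both genotypes, added after the data were seen, gave log2 fold changes of -0.70 (95% interval -1.55 to 0.14) for Cdkn1a and 0.53 (95% interval -0.06 to 1.13) for Bbc3, both uncalled by edgeR (adjusted p = 0.862). This test called 4 genes (0.0224%), and they were the sex-linked genes Xist, Eif2s3y, Uty and Ddx3y.

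Trp63, Trp73, Mdm2 and Bax had opposite signs between the times in the 2 replicates, with Mdm2 ratios of 2.04 and 1.30 in replicate 1 and 0.992 and 0.767 in replicate 2 (control and iDKO). Trp63 had log2 ratios of 52 over 25 DPI of 2.20 in control and 0.95 in iDKO in replicate 1, and of -0.17 and -0.98 in replicate 2. Trp73 had 2.66 and 1.32 in replicate 1 and -0.38 and -1.49 in replicate 2. For Bax the values were -1.67 and -1.12 in replicate 1 and 0.14 and 0.21 in replicate 2. In replicate 1 the median of all genes by length ran the same way, from -1.25 and -0.88 in the shortest class to 0.70 and 0.32 in the longest. The part of gene length in these ratios was not tested. In each genotype taken alone edgeR called 0 genes between the times (0%), with adjusted p = 1.00 for each of the 8 genes.

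**Figure D4:**
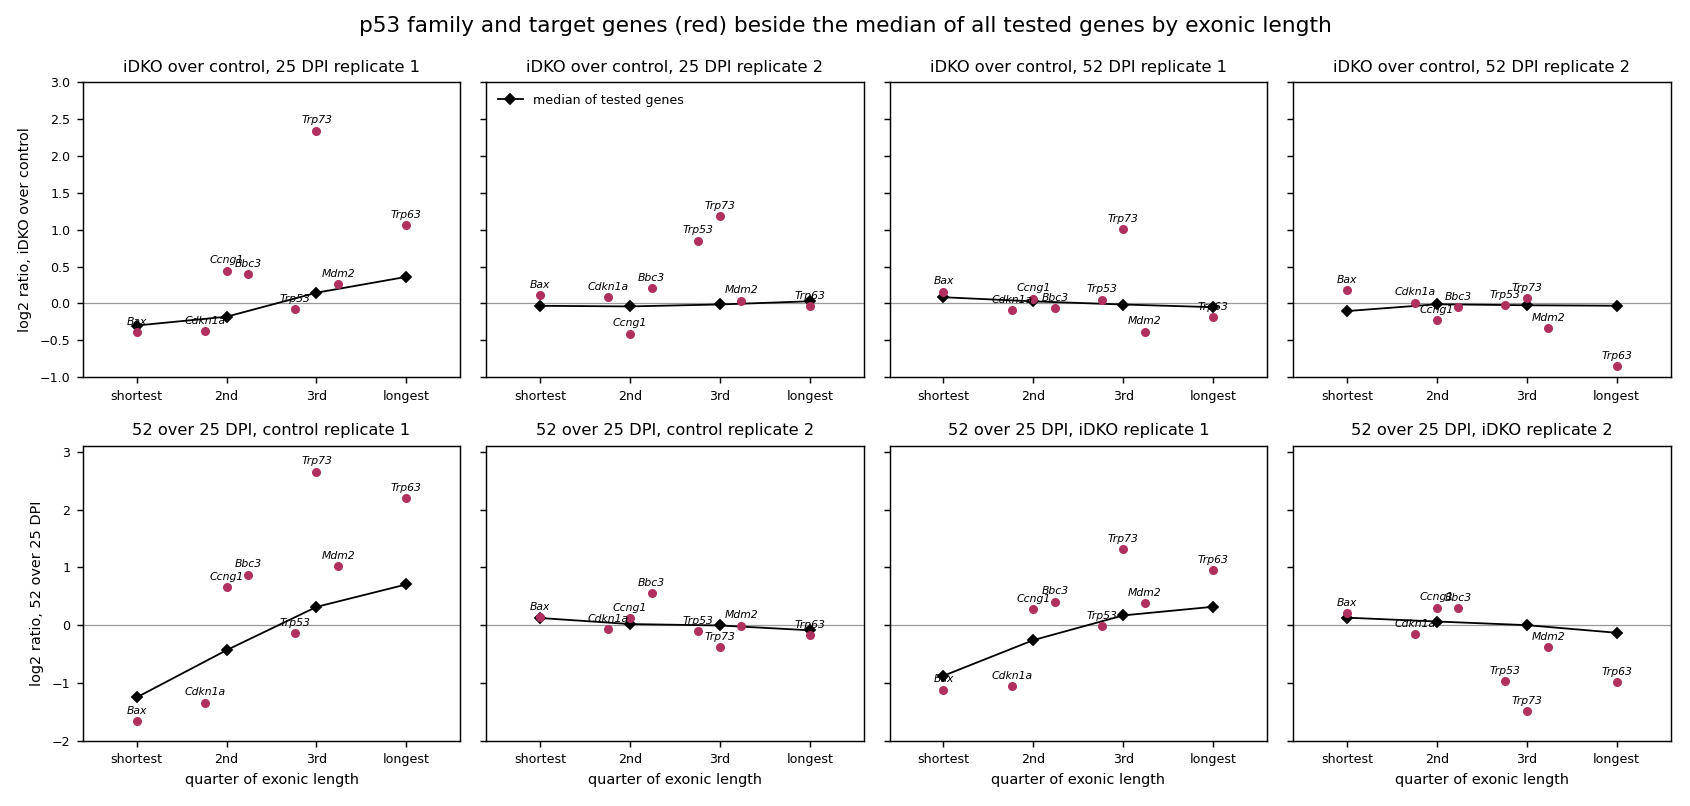
Log2 ratios of the 8 tested genes (red points) beside the median of all tested genes (black diamonds) in 4 classes of exonic length, for iDKO over control (top) and 52 over 25 DPI (bottom). The medians rise from -1.25 to 0.70 with length in the control libraries of replicate 1 and stay between -0.09 and 0.12 in those of replicate 2.

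The genes most like each of the 8 in their pattern over the 8 libraries, after the mean of each replicate number was taken out, are given as a description only. Trp73 was most like Pde8a (Pearson r = 0.989), Trim28 (0.989) and Ppargc1b (0.982), and Trp63 most like Met, Jag2 and Ahcyl2 (0.997, 0.997 and 0.996). Trp53 was most like Baz1a (0.979), Palmd (0.960) and Lama4 (0.949). For Cdkn1a these were Pfdn2, Ciao2b and Ccl27a (0.998, 0.997 and 0.996), for Bax Erh, Cwc15 and Psmb3 (0.998, 0.997 and 0.997), and for Mdm2 Hlf, Col4a1 and Gpsm2 (0.988, 0.987 and 0.985). For Ccng1 they were Zfp712, Tcaim and Gm46430 (0.988, 0.985 and 0.977) and for Bbc3 Mob1b, Sema6c and Arhgap5 (0.991, 0.988 and 0.986). The values were picked as the highest among 12290 genes over 8 libraries that also differ in cell markers and in the medians by gene length. On the same scale Cdkn1a ran with Bax (r = 0.965) and against Bbc3 (-0.852), Trp63 (-0.844) and Mdm2 (-0.825), while Trp63 ran with Mdm2 (0.949) and Trp73 (0.829).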

How the data were processed

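RNA was sequenced from mouse epidermis in 8 libraries. For each library the authors deposited raw gene counts, once without regard to strand and once for each strand. The tools named in the submitters' processing notes are STAR 2.5.2a, Trimmomatic 0.35, FastQC 0.11.9 and DESeq2 1.24.0, and the builds are mm10 and GRCm38. Settings and annotation were not stated there. Identifiers were matched to GENCODE M21 (54809 of 54838).

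The unstranded counts were tested with edgeR 4.0.16 (R 4.3.3) after filterByExpr and TMM scaling, with 1 mean per group (4 residual degrees of freedom) or with time and genotype (5), with Benjamini-Hochberg adjustment over 17839 genes and calls at adjusted p under 0.05. The replicate block within time, under which DESeq2 gave the calls described, leaves 2 residual degrees of freedom, or 3 across both times. The tests were run first on simulated counts, whose outcome is not given here and is not used as support for the calls. Standard errors were taken from the fold change and the F statistic. CPM are scaled by TMM. With 2 libraries a group and no block, p values measure the spread between the replicates, which also differed in strandedness. Of the stranded counts of replicate 2, 95.4% to 95.7% lay on the second strand, and 49.8% to 49.97% of those of replicate 1. With the replicate block within time, p values measure how the ratios of iDKO to control vary between pairs.

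The labels number the replicates, and the differences between replicates 1 and 2 correlated at 0.394 to 0.779 between the groups, so libraries of the same number were treated as pairs. Alternatives were RLE scaling, no filter, DESeq2 1.42.0, limma-voom (limma 3.58.1), blocks by replicate number and within time, strand-specific counts for replicate 2, fits to 4 libraries and leaving out each library or pair. The genes, lists and tests were chosen with earlier results of these data known. Named genes are the 9, up to 3 of each list with the smallest p across both times under the block within time, and genes chosen after their values were seen where a count is spelled out (those in the same direction in all 4 pairs, and DESeq2 calls). Ddit3 was not matched to a single identifier.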

Additional observations from a re-analysis of the deposited data

How the results depend on the processing

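Groups of 2 libraries leave wide intervals, and depth limits Gdf15. The count of genes called by edgeR, 0 in each of the 4 comparisons of genotype and in the times within control and within iDKO, was 8 at 25 DPI, 25 at 52 DPI, 16 across both times and 19 for the difference of effects without a filter on low counts, and 62 and 37 between the times in control and iDKO. DESeq2 called 2, 1, 8, 14 and 11 genes at 25 DPI, at 52 DPI, across both times and between the times in control and iDKO. With the replicate block within time DESeq2 called 103, 35, 73 and 39 genes at 25 DPI, at 52 DPI, across both times and for the difference. edgeR with this block called 1 gene across both times and 0 to 2 with 1 pair left out. The comparison of the times over both genotypes was added after seeing the data and called 4 genes, and 5 with the replicate block. At an unadjusted p under 0.05 edgeR without a block had 75, 143, 130, 139, 269 and 298 genes in the 6 comparisons, and limma-voom called 0 in each. With the block within time edgeR had 1162, 764, 718 and 1116 such genes in the 4 comparisons of genotype.

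Of the 24 log2 fold changes of the 8 genes (25 DPI, 52 DPI and both times), Trp73 at 25 DPI by DESeq2 with the block was the only call over all libraries in the fits run, and with 1 pair left out it also called Trp73 across both times (1.48, adjusted p = 0.00329, without the replicate 2 pair at 52 DPI). The block changed no other call of these genes. Across both times the 95% intervals by edgeR with the block were -0.48 to 0.30 for Cdkn1a, -0.49 to 0.27 for Mdm2, -0.45 to 0.38 for Ccng1, -0.37 to 0.40 for Bax, -0.27 to 0.51 for Bbc3 and 0.34 to 1.94 for Trp73. Some uncalled values changed sign, and the cause was not tested. Trp53 at 52 DPI was -0.00056 with RLE scaling and by DESeq2 and -0.0019 by DESeq2 with the block within time. Ccng1 at 25 DPI was -0.0032 with the replicate block. Bax across both times was 0.015 with the block within time and 0.00037 by DESeq2 with it, and Trp63 across both times was 0.016 by limma-voom. With 1 library or pair left out, others also changed sign, and a lone library left in a group was assumed to vary like the other groups. At 52 DPI the values ranged from -0.097 to 0.12 for Trp53, -0.48 to 1.41 for Trp73, -0.21 to 0.12 for Cdkn1a, -0.40 to 0.22 for Ccng1, -0.19 to 0.54 for Bax and -0.14 to 0.019 for Bbc3. Across both times the values ranged from -0.0092 to 0.35 for Trp53, -0.44 to 0.30 for Trp63, -0.27 to 0.11 for Cdkn1a, -0.37 to 0.089 for Mdm2, -0.19 to 0.12 for Ccng1 and -0.44 to 0.62 for Bax. At 25 DPI the values ranged from -0.45 to 1.61 for Trp63, -0.60 to 0.35 for Cdkn1a, -0.41 to 0.83 for Mdm2, -0.26 to 0.34 for Ccng1 and -1.496 to 1.35 for Bax.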
